A study of Mus musculus with 16 samples.

Results

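Kidneys of mice lacking both the inhibitory Fc receptor FcγRIIB and functional STING were compared with kidneys of mice lacking STING alone, so that the effect of Fcgr2b deficiency was read where STING was absent. The comparison used 8 of the 16 arrays of the series, 4 labelled Fcgr2b-ko, Sting-ko (double-deficient, Fcgr2b-/-.Sting gt/gt) and 4 labelled Sting-ko (Sting gt/gt), chosen by these genotype labels alone. All 8 mice were 6 months old, and total RNA of the whole kidney was hybridized to one-color arrays, 1 mouse per array. The gt allele, Goldenticket, is a functional knockout of STING that both groups carried. The Fcgr2b-/- line was made in the 129 strain and then backcrossed to C57BL/6, and the labels give a mix of 129 and C57BL/6 for the double-deficient mice but C57BL/6 for the Sting-ko mice. Strain-derived sequence around Fcgr2b and the Fcgr2b deletion itself therefore cannot be told apart in this comparison. The other 8 arrays, 4 Fcgr2b-ko of the mixed background and 4 purchased wild-type mice of C57BL/6, also 6 months old, were used to share the estimate of the spread and to set the same genotype difference beside this one. The labels of the Fcgr2b-ko group name no Sting allele, whereas headings in the study give Sting wt/gt for such mice. The methods state that the crosses gave the double-deficient mice and littermate controls, and the labels do not say which mice of the arrays were littermates.

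FcγRIIB carries an inhibitory motif and restrains B cells and myeloid cells that bind immune complexes. STING is an adaptor of the endoplasmic reticulum that binds cGAMP, the product of the DNA sensor cGAS, and signals through TBK1 to type I interferon. In lupus nephritis immune complexes are deposited in glomeruli and myeloid cells enter the kidney. Formyl peptide receptors and C-type lectins are receptors by which these cells sense microbes and damaged cells. In bulk kidney RNA, fewer cells of a type and less RNA per cell cannot be told apart.

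The promoters of 5 of the 12 named genes with the largest separated increases are shown because these genes were high in the same mice. The sequences are from RefSeq on GRCm38.p6, a C57BL/6J reference, and run from 250 bases before to 50 bases after the start, 5′ to 3′ on the strand of the gene. Clec4e lies at chr6:123289822-123290121 on the minus strand, Acod1 at chr14:103046762-103047061 on the plus strand, Fpr1 at chr17:17883890-17884189 on the minus strand, Ear2 at chr14:44102404-44102703 on the plus strand and Rnase2a at chr14:51256063-51256362 on the minus strand. Capitals mark matches to the C/EBP motif TTGCNNAA or to the core of the interferon-stimulated response element, GAAANNGAA, on either strand.
Clec4e: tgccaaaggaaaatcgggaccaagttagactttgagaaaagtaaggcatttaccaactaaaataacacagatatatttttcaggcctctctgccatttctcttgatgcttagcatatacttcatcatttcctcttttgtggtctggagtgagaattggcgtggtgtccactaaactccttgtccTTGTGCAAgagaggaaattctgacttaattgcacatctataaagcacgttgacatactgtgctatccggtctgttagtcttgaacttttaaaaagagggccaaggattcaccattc
Acod1: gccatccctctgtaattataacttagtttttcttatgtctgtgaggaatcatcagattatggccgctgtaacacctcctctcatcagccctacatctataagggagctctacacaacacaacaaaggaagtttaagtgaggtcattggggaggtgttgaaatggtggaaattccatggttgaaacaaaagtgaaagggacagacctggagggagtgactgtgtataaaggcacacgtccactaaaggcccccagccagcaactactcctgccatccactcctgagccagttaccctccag
Fpr1: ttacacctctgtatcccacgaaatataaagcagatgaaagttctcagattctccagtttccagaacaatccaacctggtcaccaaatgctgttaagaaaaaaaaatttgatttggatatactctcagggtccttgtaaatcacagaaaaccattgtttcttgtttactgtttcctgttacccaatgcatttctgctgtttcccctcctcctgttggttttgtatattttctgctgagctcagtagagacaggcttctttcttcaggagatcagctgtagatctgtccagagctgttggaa
Ear2: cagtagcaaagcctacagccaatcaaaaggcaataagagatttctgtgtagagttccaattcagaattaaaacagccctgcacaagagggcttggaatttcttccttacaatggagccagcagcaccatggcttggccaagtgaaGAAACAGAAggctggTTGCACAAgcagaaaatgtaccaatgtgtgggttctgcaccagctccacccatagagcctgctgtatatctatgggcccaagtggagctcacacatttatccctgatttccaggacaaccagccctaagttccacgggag
Rnase2a: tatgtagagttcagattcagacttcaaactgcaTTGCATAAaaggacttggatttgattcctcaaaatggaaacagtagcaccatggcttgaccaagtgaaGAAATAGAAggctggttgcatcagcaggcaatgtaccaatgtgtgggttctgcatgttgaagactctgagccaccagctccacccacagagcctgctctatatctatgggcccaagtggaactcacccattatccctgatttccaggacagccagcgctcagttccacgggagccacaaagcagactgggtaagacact
Of 27025 promoters of the same length, 10.8% held the C/EBP motif and 8.57% the interferon element core. Of the 11 genes with a promoter entry among the 12 largest increases, 5 held the C/EBP motif (Clec4e, Ear1, Rnase2a, Ear2 and Ear10) and 5 held the interferon element core (Ear1, Rnase2a, Ear2, Clec4d and Ear10). The Ear1 and Ear2 promoters share a run of 204 identical bases and each shares 95 with Ear10, so these matches are not independent of one another. The PU.1 motif GAGGAAG was found in 1 of the 11 promoters, that of Clec4d, against 13.5% of all promoters. The motifs AAAGGTCA (NBRE), GGGACTTTC (kappaB) and TGANTCA (AP-1) were found in none of the 11 windows, against 1.46%, 0.344% and 7.93% of all promoters. The motifs do not overlap one another in the printed windows.

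The labelled tissue was borne out by its markers, with Lrp2, Slc34a1, Umod, Slc12a1, Aqp2 and Kap well above background on 8 of 8 arrays. The adrenal enzyme gene Cyp11b1 was well above background on 0 of 8 arrays and the adrenal gene Star on 5 of 8. The liver gene Apoa1 was so on 1 of 8 arrays and Alb on 8 of 8 (-0.81 to 3.27). The fat gene Adipoq was so on 7 of 8 and ranged from -4.89 to 1.11, and 10 of 13 measured fat genes were lower in double-deficient kidneys (median -0.70, and -1.32 without Sting-ko replicate 4). Their part in the results was not tested. Between 30744 and 35168 probes were well above background per array, and arrays of one genotype correlated at 0.960 to 0.984 over all probes. Sting-ko replicate 4 and double-deficient replicate 2 stood farthest from their group means, with root mean square deviations of 0.75 and 0.70 on the log2 scale against 0.44 to 0.64 for the other 6 arrays. Slide 1 held 1 double-deficient and 2 Sting-ko arrays, and slide 2 held 3 and 2. The labels give no sex, but Y-linked genes were high and Xist low in 2 double-deficient mice (replicates 2 and 4) and in 1 Sting-ko mouse (replicate 3). The mean Y-linked level was -0.92 to 0.20 in these 3 and -7.41 to -6.55 in the other 5, so the groups were unequal in sex-linked expression.

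Throughout, a level is the log2 signal of a probe minus the 75th percentile of its array, and a difference is the double-deficient mean minus the Sting-ko mean with its standard error (SE) from the limma fit of 16 arrays. No probe of the 35629 tested passed a Benjamini-Hochberg adjusted p of 0.05 and 2-fold in limma, which is 0 called in either direction (0%). At an unadjusted limma p under 0.05, 1085 probes differed (3.05%), 580 higher and 505 lower in double-deficient kidneys, and the smallest adjusted p was 0.223. The exact Mann-Whitney test also called 0 after adjustment, and its smallest possible two-sided p with 4 against 4 arrays is 0.0286. A fit of only these 8 arrays called 2 probes, Clec4e and Acod1. The median difference over all tested probes was 0.01, and 51.0% of them were higher in double-deficient kidneys.

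All 4 double-deficient arrays lay on one side of all 4 Sting-ko arrays for 759 probes (2.13%). With a difference of at least 2-fold, 80 probes were higher (0.225%) and 92 were lower (0.258%) in double-deficient kidneys. Named genes stood behind 57 of the 80 probes and 61 of the 92. The sum of both, 172, moved with single arrays. It was 1171 without Sting-ko replicate 2, 980 without double-deficient replicate 2, 505 without Sting-ko replicate 3, 467 without double-deficient replicate 3, 335 without Sting-ko replicate 1 and 126 without Sting-ko replicate 4.

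The targeted gene was read first. Fcgr2b signal was -0.04, 0.50, -0.40 and -0.24 in the 4 double-deficient kidneys and 1.54, 1.05, 0.70 and -0.19 in the 4 Sting-ko kidneys. Sting-ko replicate 4 thus lay among the double-deficient arrays and the groups overlapped. The difference was -0.82 (SE 0.35, adjusted p = 0.885), and a second Fcgr2b probe gave -0.56. Where these probes lie relative to the deleted part of the gene was not given in the sources used here, so a remaining signal does not test the label. In Fcgr2b-ko against wild-type kidneys the same probe differed by -1.45. Sting1, which encodes STING, overlapped fully between the groups (-0.57 to 0.90 in double-deficient and -0.10 to 1.01 in Sting-ko kidneys), with a difference of -0.20 (SE 0.66) whose sign turned when double-deficient replicate 4 or Sting-ko replicate 1 was left out and within slide 2 alone (0.075).

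Among named genes, the largest separated increase as measured belonged to Ifi202b, an interferon-inducible gene of the Ifi200 cluster on chromosome 1 that differs in expression between mouse strains. Its level was -0.52, 0.69, -0.39 and -1.47 in double-deficient kidneys and -7.24, -1.91, -6.69 and -2.78 in Sting-ko kidneys. Sting-ko replicates 2 and 4 therefore carried clear Ifi202b signal, whereas replicates 1 and 3 were not well above background, although the label gives all 4 the same strain. The difference was 4.23 (SE 1.11), a second probe gave 4.16, and the 4 wild-type kidneys lay between -7.48 and -6.57. The rank of Ifi202b above the next genes rests on signals not well above background.

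Clec4e, Acod1 and Fpr1, genes of activated myeloid cells, were measured in every double-deficient kidney and in no Sting-ko kidney. Clec4e encodes Mincle, a C-type lectin that recognizes mycobacterial glycolipid and dead cells. Its level was -1.79, -1.88, -1.70 and -2.37 in double-deficient kidneys and -4.98, -5.80, -6.73 and -6.76 in Sting-ko kidneys, where no array was well above background. The double-deficient arrays were tightly grouped (SD 0.30, n = 4) and lay far above the highest Sting-ko array, with a difference of 4.13 (SE 0.80, adjusted p = 0.885). As a bound, Clec4e was at least 7.02-fold higher in double-deficient kidneys, the mean of that group being set against the lowest signal well above background on each Sting-ko array or the probe's own signal, whichever was higher.
Acod1 encodes the enzyme that makes itaconate in activated macrophages. Its level was -3.39, -2.53, -2.09 and -2.70 in double-deficient kidneys and -7.14, -5.69, -6.69 and -6.72 in Sting-ko kidneys. Again the groups were far apart, with a difference of 3.88 (SE 0.76), and Acod1 was at least 4.26-fold higher. Fpr1, a formyl peptide receptor of neutrophils and monocytes, was at -1.72, -2.64, -2.53 and -3.09 against -5.48, -5.00, -6.43 and -6.39, and it was at least 4.69-fold higher.

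The eosinophil-associated ribonucleases formed a second group. Of the 6 measured genes of this list, 4 had no overlap between the groups, against 2.13% of all tested probes. These 4 were among the 12 chosen for no overlap, so the count is not separate evidence. Ear2 was at 0.36, 0.27, 0.51 and -0.28 in double-deficient kidneys and -0.73, -2.16, -2.97 and -2.66 in Sting-ko kidneys, well above background on all 8 arrays. Its difference was 2.34 (SE 0.68), a 5.07-fold higher signal. Rnase2a was at -1.18, -0.97, -1.01 and -1.82 against -2.26, -3.76, -4.77 and -4.36, with a difference of 2.54 (SE 0.70). Ear1 and Ear10 differed by 2.76 and 2.18. In each of these 4 genes Sting-ko replicate 1 was the highest of its group and still below the lowest double-deficient kidney. These genes are close copies of one another, as the shared promoter runs show, and a probe may bind the RNA of more than one, so the 4 values are not separate evidence. Ear1, Rnase2a and Ear10 were well above background on 2 of the 4 Sting-ko arrays. The list holds 12 genes, of which 6 were measured at a probe that passed the filter on dim probes, with a median difference of 2.26. It was 0.95 with normexp background correction and 0.34 over probes well above background on all 16 arrays.

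Other genes of myeloid cells made up the rest of the 12 largest increases. Cd300e, an activating receptor of monocytes, was at -1.38, -1.74, -1.02 and -1.76 in double-deficient kidneys and -3.08, -3.48, -5.39 and -3.86 in Sting-ko kidneys, with a difference of 2.48 (SE 0.70). Fpr2, a second formyl peptide receptor, differed by 2.65 (SE 0.83), and its brighter probe by 1.09. Ms4a6d, a membrane protein of macrophages, differed by 2.26 (SE 0.85) and Clec4d, a C-type lectin that pairs with Mincle, by 2.25 (SE 0.93). All 12 had an unadjusted limma p under 0.05 and an adjusted p of 0.885. With Y-linked signal as a covariate all 12 kept their sign. Their signs within either slide alone and without each array in turn were fixed by the choice of separated genes. Leaving out 1 array took Ms4a6d and Clec4d past an unadjusted p of 0.05, while the other 10 stayed under it.

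**Figure D1:**
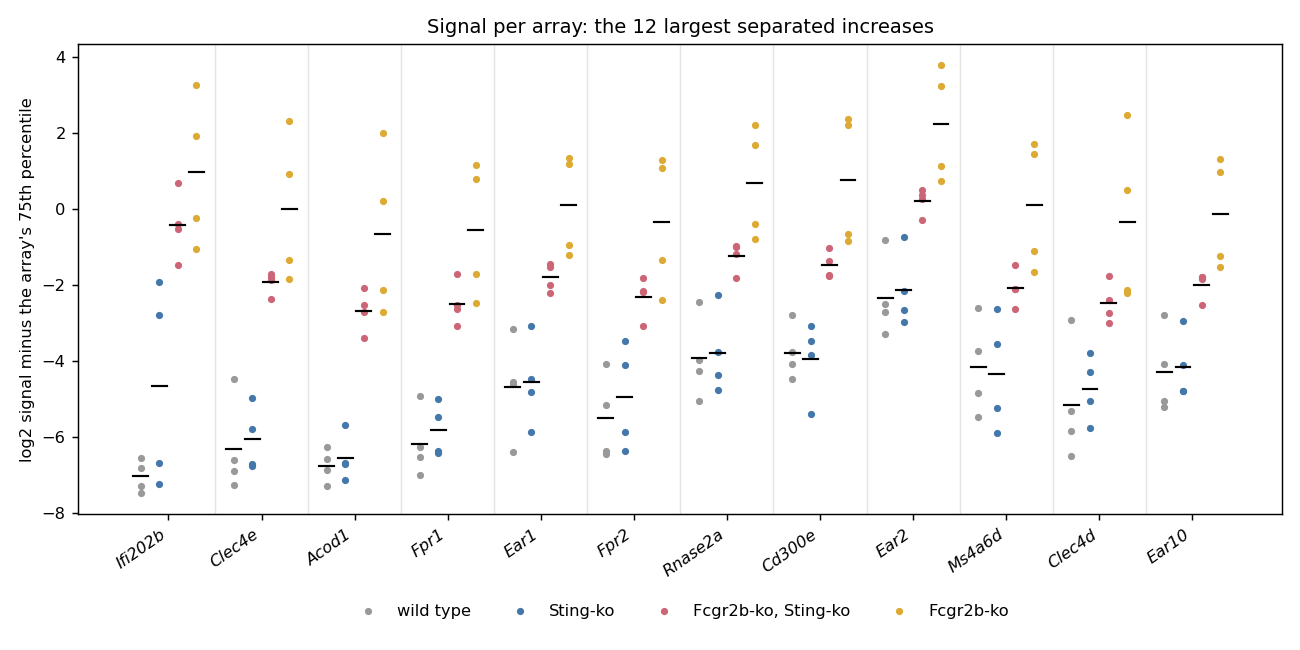
Level (log2 signal minus the 75th percentile of the array) of the 12 genes with the largest increases whose groups do not overlap, 1 point per array and 4 arrays per genotype, with a bar at each mean. The double-deficient arrays lie above all Sting-ko arrays by construction of the choice. Sting-ko and wild-type kidneys cover similar ranges except for Ifi202b, where 2 Sting-ko arrays at -1.91 and -2.78 stand above the rest.

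The lists around these genes were then read whole, each gene at its brightest probe. Of 11 measured formyl peptide receptor and C-type lectin genes, 9 were higher in double-deficient kidneys, 3 had an unadjusted limma p under 0.05 and 5 had no overlap, against 3.05% and 2.13% of all tested probes, and the median difference was 1.09 against 0.01 over all tested probes. This list includes Clec4e, Fpr1, Fpr2 and Clec4d, already chosen for no overlap, so these values are not separate evidence. Clec4n, which encodes Dectin-2, was at -0.69, -0.62, -1.16 and -1.58 in double-deficient kidneys and -1.87, -2.50, -2.85 and -3.75 in Sting-ko kidneys, without overlap and with a difference of 1.73 (SE 0.85). In the monocyte and macrophage list, 16 of 23 were higher and 3 had an unadjusted p under 0.05, against 3.05% of all tested probes, with a median of 0.22, and of 0.08 without double-deficient replicate 2 and 0.42 without Sting-ko replicate 1. These 3 were Cd300e, which was also chosen above for no overlap, Treml4 and Lyz2. Treml4, a receptor of blood monocytes, differed by 1.79 (SE 0.61) without overlap, and Lyz2, the macrophage lysozyme, by 1.75 (SE 0.80) with overlap. The mean level of the whole monocyte and macrophage list ranged from -0.14 to 0.81 in double-deficient and from -0.57 to 0.57 in Sting-ko kidneys, relative to the mean of the 8 arrays. The part of cell number in the differences of single receptors was not tested.

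Of 12 measured neutrophil genes 6 were higher, with a median of 0.14. Mmp8, a neutrophil collagenase, differed by 1.19 (SE 0.48) but was well above background on 1 of 8 arrays. In the cytokine and inflammasome list 6 of 15 were higher and 9 lower, with a median of -0.05. Its largest difference as measured was that of Il1rn (2.17). Il1rn, the antagonist of the interleukin-1 receptor, was at -4.61, -3.82, -4.45 and -4.37 in double-deficient kidneys and -5.56, -7.15, -6.61 and -6.61 in Sting-ko kidneys, where no array had it well above background. Of 22 chemokines, 12 were higher with a median of 0.33. That median was -0.08 without Sting-ko replicate 4, -0.06 without double-deficient replicate 2 and 0.66 without Sting-ko replicate 1. In this list only Cxcl13, which attracts B cells, had an unadjusted p under 0.05 (difference 1.89, SE 0.82). The chemokine scores ranged widely within both groups, from -0.53 to 1.11 and from -0.73 to 0.97.

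The probes called in Fcgr2b-ko against wild-type kidneys, which share no array with this comparison, were then read in the STING-deficient mice. There limma called 18 of 35629 probes (0.0505%), 17 higher and 1 lower. The count was 8 with Y-linked signal as a covariate, 7 with the authors' value table, 5 with normexp background correction and 0 over probes well above background on all 16 arrays. In double-deficient against Sting-ko kidneys all 18 had the same sign, against 31.0% of all tested probes. Of the 18, 17 had an unadjusted limma p under 0.05, against 3.05% of all tested probes. At least 2-fold without overlap were 15, against 0.225% higher and 0.258% lower of all tested probes. Both comparisons use 1 spread per probe from all 16 arrays, so these p-values are not independent of the calls. All 18 differences were smaller here, with a median of 2.54 against 4.61 for the 17 higher probes. Probes chosen for passing a threshold in one comparison tend to be smaller in another, and the test of the difference is the interaction. The interaction called 0 probes by limma. Of all tested, 2234 probes reached 0.05 before adjustment, and the smallest adjusted interaction p was 0.661. For Clec4e the interaction was -2.19 (SE 1.13), for Acod1 -2.22 (SE 1.07), for Fpr1 -2.30 (SE 1.004) and for Ifi202b -3.79 (SE 1.56), each with an adjusted p of 0.661. The sizes of these 4 rest on signals not well above background, since Clec4e, Acod1 and Fpr1 were well above it on 0 of 4 Sting-ko and on 1, 0 and 0 of 4 wild-type arrays, and Ifi202b on 2 of 4 and 0 of 4. Pou2f2, a B cell transcription factor, was the 1 probe of the 18 without an unadjusted p under 0.05 here, with 0.28 (SE 0.36) against 2.27 and an interaction of -1.98 (SE 0.51).

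Across all tested probes the differences in the 2 pairs of genotypes did not run together. Their correlation was -0.32, over 35629 probes that are not independent replicates, and 31.0% of probes had the same sign in both pairs. Of the 80 separated higher probes, 38 were also higher in Fcgr2b-ko than in wild-type kidneys, where 43.4% of all tested probes were higher. Of the same 80, 25 were separated and at least 2-fold there, against 0.34% of all tested probes. Of the 92 separated lower probes, 30 were also lower there, where most tested probes were lower. Of these 92, 6 were separated and at least 2-fold there, against 0.0646% of all tested probes. The 12 largest increases were higher in both pairs for 12 of 12 genes, and the 12 largest decreases were lower in both for 8 of 12.

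**Figure D2:**
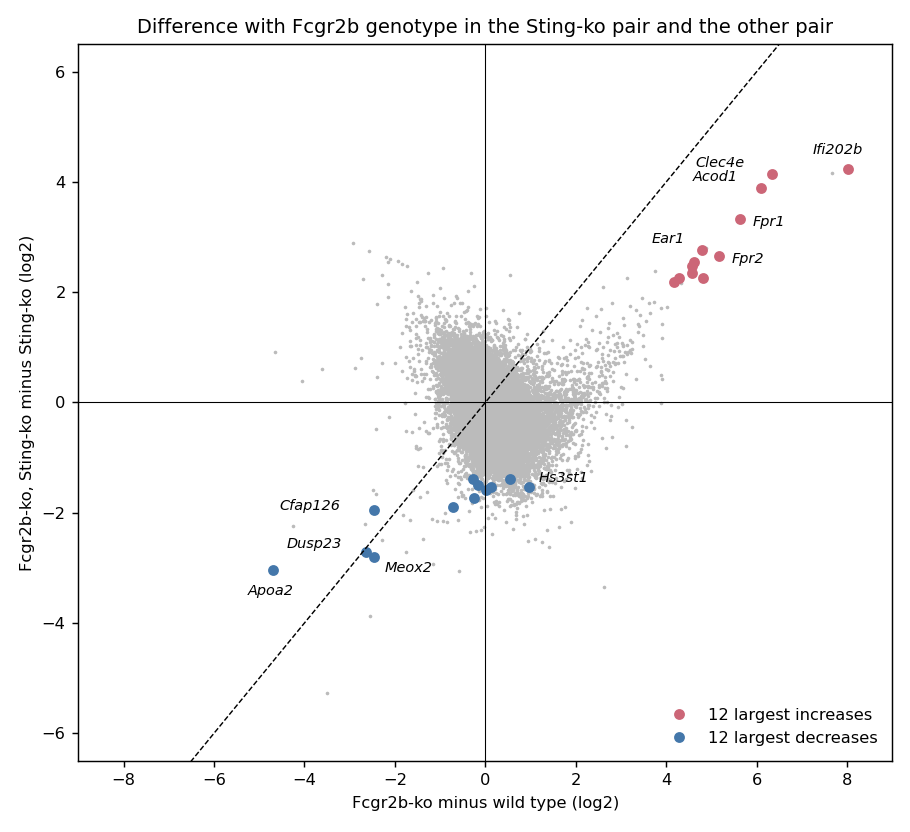
Each gray point is 1 of 35629 tested probes, with its log2 difference in Fcgr2b-ko against wild-type kidneys on the x axis and in double-deficient against Sting-ko kidneys on the y axis; the dashed line marks equal differences. The 12 largest increases lie to the right at 2.18 to 4.23 on the y axis and below the line, whereas most of the 12 largest decreases lie near 0 on the x axis, and the gray cloud slopes down (correlation -0.32).

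The largest decreases included neighbors of Fcgr2b on chromosome 1. Cfap126, the 3rd gene from Fcgr2b and a component of motile cilia, was at -0.13, -0.58, -0.12 and -0.77 in double-deficient kidneys and 1.67, 1.42, 2.33 and 0.79 in Sting-ko kidneys. Its difference was -1.95 (SE 0.36, adjusted p = 0.885), and a second probe gave -1.66. Dusp23, a small dual-specificity phosphatase 57 genes away, was at -0.56, -2.76, -0.63 and -1.07 against 1.25, 1.03, 2.29 and 1.23, with a difference of -2.71 (SE 0.56). Both genes had nearly the same difference in Fcgr2b-ko against wild-type kidneys, -2.47 for Cfap126 and -2.64 for Dusp23, with interactions of 0.52 (SE 0.51) and -0.07 (SE 0.80). Apoa2, an apolipoprotein 9 genes away, was the largest separated decrease among named genes by 1 probe (-3.04, SE 0.86). Its brighter probe differed by only -0.17 (SE 0.34), so the size of the decrease depended on the probe. Ppox, the heme synthesis enzyme 14 genes away, was lower by -0.67 (SE 0.28) and Tagln2, an actin-binding protein 52 genes away, by -0.84 (SE 0.26), both without overlap.

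Over the 200 protein-coding genes on each side of Fcgr2b, 292 were measured. Of these, 15 had an unadjusted limma p under 0.05 (5.14%, against 2.47% of 16401 named genes at their brightest probe) and 12 had no overlap (4.11% against 2.11%). The directions were even, with 145 of 292 higher and a median of -0.00. Ifi202b, 81 genes away, was the largest increase in the window, while Ifi205, the next gene, differed by -2.16 (SE 0.998) with overlap. In the Ifi200 family 1 of 7 measured genes was higher and the median was -0.40. Dnm3, a dynamin 80 genes to the other side, differed by -1.34 (SE 0.46) here and by 0.06 in the other pair. Itln1, a galactofuranose-binding lectin, differed by 1.72 (SE 0.65) and was not well above background in Sting-ko kidneys.

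**Figure D3:**
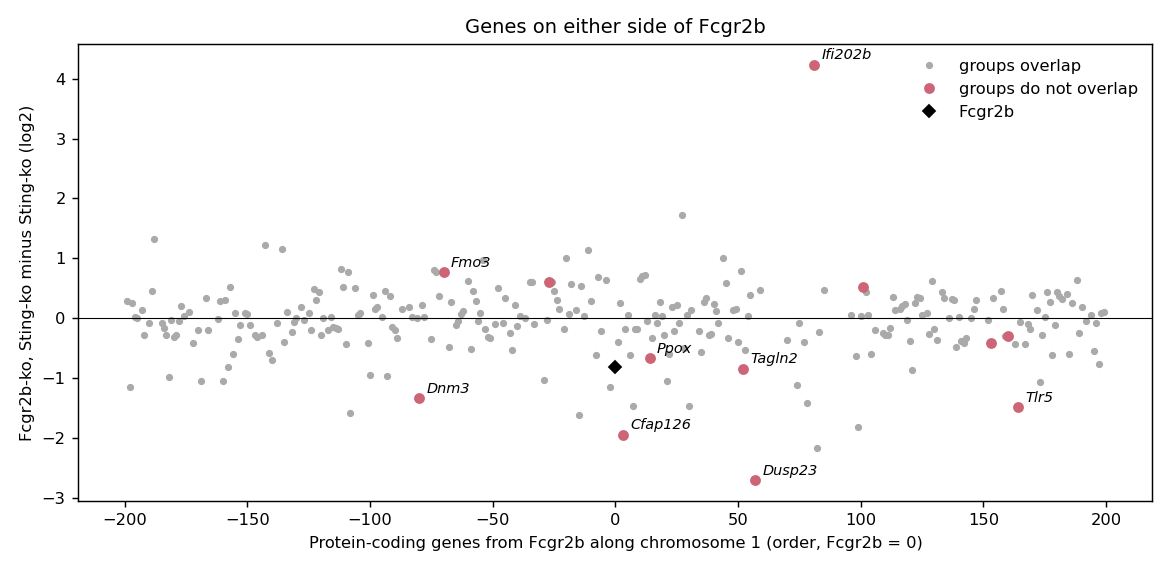
Difference of double-deficient minus Sting-ko kidneys (log2) for 292 protein-coding genes and Fcgr2b itself, placed by their order on chromosome 1 with Fcgr2b at 0. Red points are the 12 genes whose groups do not overlap. Cfap126 at -1.95, Dusp23 at -2.71 and Ifi202b at 4.23 stand out from the others.

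The remaining large decreases were mostly dim genes. Meox2, a homeobox transcription factor of mesenchyme and vessels, was at -4.72, -5.35, -5.58 and -3.76 in double-deficient kidneys and -1.90, -2.82, -2.90 and -0.56 in Sting-ko kidneys, with a difference of -2.81 (SE 0.74) and of -2.46 in Fcgr2b-ko against wild-type kidneys. Cldn11, Hmga2, Fzd9, Asap2, Hs3st1, Map2, Aqp5 and Kif26b differed by -1.90 to -1.39. Sting-ko replicate 4 was the highest of its group for 8 of the 12 largest decreases, and without it 9 of 12 had an unadjusted p under 0.05. Hmga2 had a second probe in the opposite direction (0.77), while the other probes of Asap2, Hs3st1, Map2, Aqp5 and Kif26b had the same sign and a smaller size. For Hs3st1, a heparan sulfate sulfotransferase, the interaction was -2.51 (SE 0.81, adjusted p = 0.661), and it was higher by 0.97 in Fcgr2b-ko than in wild-type kidneys. The smallest p of all tested probes belonged to a probe without a gene name, A_55_P2159555, which was at 0.01, -3.18, -0.59 and -1.43 in Sting-ko kidneys and not well above background in double-deficient kidneys, at least 13.4-fold lower.

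**Figure D4:**
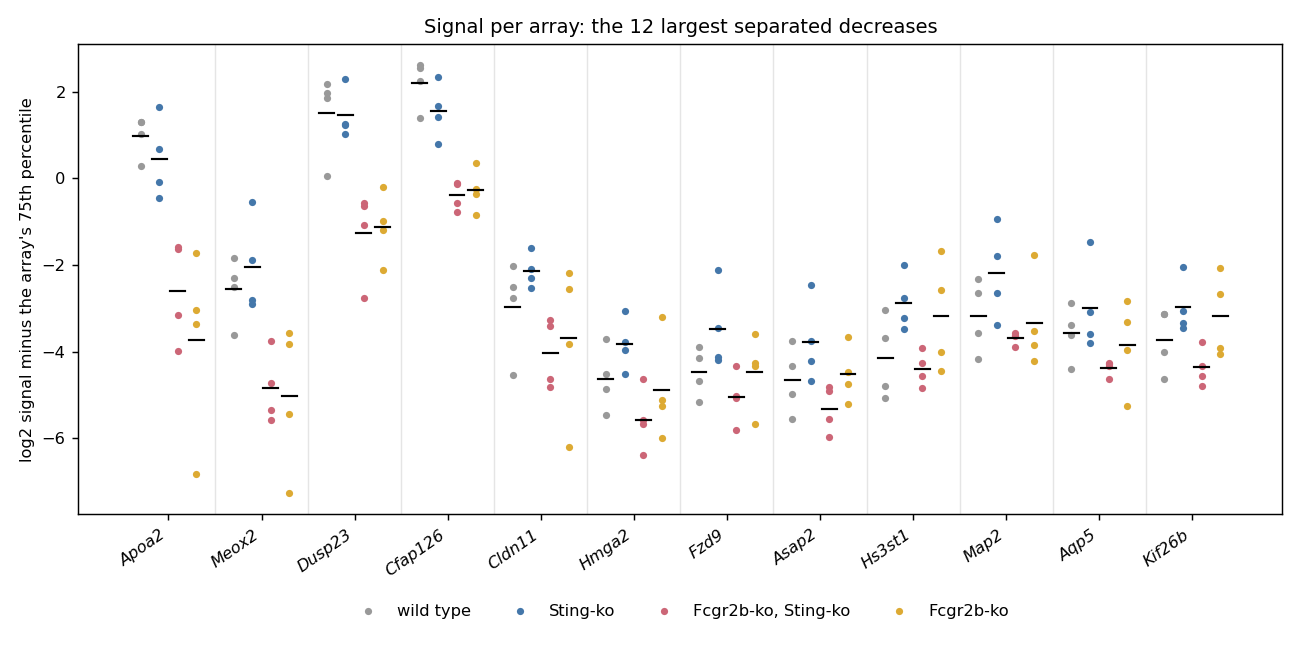
Level (log2 signal minus the 75th percentile of the array) of the 12 genes with the largest decreases whose groups do not overlap, 1 point per array and 4 arrays per genotype, with a bar at each mean. Apoa2, Meox2, Dusp23 and Cfap126 are lower in both Fcgr2b-deficient genotypes at the probes shown, and in the other 8 genes the double-deficient arrays overlap with wild-type arrays.

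Interferon-inducible genes did not separate the groups. Of 71 measured, 15 were higher and 56 lower in double-deficient kidneys, 0 had an unadjusted limma p under 0.05 or groups without overlap, and the median was -0.28. The scores were -0.23, 0.33, 0.15 and -0.76 in double-deficient and 1.001, -0.16, -0.07 and -0.26 in Sting-ko kidneys. Sting-ko replicate 1 was the highest array and double-deficient replicate 4 the lowest. Without Sting-ko replicate 1 the median was 0.01. It was -0.42 without Sting-ko replicate 4 and -0.48 without double-deficient replicate 2. Isg15, a ubiquitin-like modifier, differed by -0.58 (SE 0.51), and Oas2, an RNA-sensing synthetase, by -0.95 (SE 0.83). In Fcgr2b-ko against wild-type kidneys 67 of the 71 were higher with a median of 0.72, and the interaction for Oas2 had an adjusted limma p of 0.661.
In the cGAS-STING pathway list 3 of 16 genes had an unadjusted p under 0.05, against 3.05% of all tested probes, and the median was -0.07. Tbk1 and Ikbke, kinases downstream of STING, differed by 0.86 (SE 0.36) and 1.12 (SE 0.47), and Trim56, a ubiquitin ligase, by -0.74 (SE 0.32). All 3 overlapped between the groups, with Sting-ko replicate 4 the lowest array for both kinases and the highest for Trim56. Without it the differences were 0.42, 0.63 and -0.43.

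Lymphocyte and antigen presentation lists leaned lower without any gene past an unadjusted p of 0.05. Of 17 T cell genes 16 were lower (median -0.43), of 13 B and plasma cell genes 11 (median -0.12), of 16 dendritic cell genes 11 (median -0.40) and of 9 MHC class II genes 7 (median -0.26). Lck, a kinase of T cell receptor signaling, was at 0.73 in Sting-ko replicate 1 and between -0.65 and -0.56 in the other 3 Sting-ko kidneys, against -1.58 to -0.35 in double-deficient kidneys. Jchain, the joining chain of secreted antibody, differed by -1.72 (SE 1.05) and Cd74, the MHC class II invariant chain, by -0.51 (SE 0.49). Without Sting-ko replicate 1 the median was -0.16 for T cells, -0.12 for dendritic cells and -0.08 for MHC class II. Without double-deficient replicate 2 it was -0.80 for T cells, -0.59 for B and plasma cells and -0.56 for dendritic cells. Within slide 2 alone the T cell median was 0.22. Of 22 extracellular matrix genes 18 were lower, with a median of -0.23. That median was 0.04 without Sting-ko replicate 1 and -0.60 without double-deficient replicate 2. Col1a1, the main fibrillar collagen, differed by -1.28 (SE 0.89).

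Genes of tubular metabolism leaned higher in double-deficient kidneys. All 24 measured proximal tubule genes were higher, with a median of 0.38 and 0 at an unadjusted limma p under 0.05 or without overlap. Their scores were 0.15, 0.10, 0.11 and 0.63 in double-deficient kidneys and -0.68, 0.08, 0.20 and -0.59 in Sting-ko kidneys, so that Sting-ko replicates 1 and 4 were low and replicates 2 and 3 lay within the double-deficient range. G6pc, the last enzyme of glucose production, differed by 0.75 (SE 0.38). In the fatty acid oxidation list 18 of 22 were higher (median 0.33). Its scores overlapped, at 0.47, -0.60, 0.87 and -0.11 in double-deficient and -0.17, 0.11, -0.27 and -0.30 in Sting-ko kidneys. Double-deficient replicate 2 was the lowest array. Cpt1a, which admits fatty acids to mitochondria, was at 4.79, 4.81, 5.31 and 5.09 against 4.30, 4.66, 4.65 and 3.28, without overlap and with a difference of 0.78 (SE 0.30). Plin2, a lipid droplet protein of the tubular injury list, differed by 0.72 (SE 0.29) without overlap. Sting-ko replicate 4 was the lowest array for both, and without it the differences were 0.46 and 0.39.
Of 33 cytochrome P450, UGT and GST genes 25 were higher (median 0.64, and 0.39 without Sting-ko replicate 4). Their scores overlapped, from -0.03 to 0.87 in double-deficient and from -1.32 to 0.43 in Sting-ko kidneys, with Sting-ko replicate 4 the lowest. The vitamin D enzymes Cyp24a1, which degrades the hormone, and Cyp27b1, which makes it, differed by 1.67 (SE 0.67) and 1.39 (SE 0.58), both with overlap. Male-high kidney genes were higher by a median of 1.14 and female-high genes had a median of -1.38, beside the unequal Y-linked signal. With Y-linked signal as a covariate these medians were 0.12 and -0.05, and the P450 list had 0.59. Enpep, the angiotensin-cleaving aminopeptidase A, was the 1 renin-angiotensin gene of 9 with an unadjusted p under 0.05 (0.89, SE 0.34).

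Cell cycle genes were higher in 20 of 20 measured, with a median of 0.33, and 3 had an unadjusted limma p under 0.05, against 51.0% of all tested probes higher and 3.05% under that p. The cell cycle scores overlapped, from -0.03 to 0.62 in double-deficient and from -0.66 to 0.22 in Sting-ko kidneys. Cdk1, the mitotic kinase, was at -3.93, -3.51, -3.66 and -4.46 in double-deficient kidneys and -4.13, -4.92, -6.27 and -6.32 in Sting-ko kidneys. In Sting-ko replicates 3 and 4 Cdk1 was thus close to Fpr1 (-6.43 and -6.39), which was not well above background there. Pcna, the replication clamp, differed by 0.70 (SE 0.30) and Aurkb, a kinase of chromosome segregation, by 1.01 (SE 0.47). For Aurkb, Sting-ko replicate 4 was similarly low (-6.39). Immediate early and stress genes leaned lower, with 16 of 22 lower and a median of -0.32, and their scores had no overlap (-0.52 to 0.02 against 0.05 to 0.27). Among the 42 lists, the only other scores without overlap were those of the eosinophil ribonucleases and of the itaconate and arginine enzymes. Both of these hold genes chosen for no overlap. The stress gene median was -0.16 without Sting-ko replicate 1, -0.17 without double-deficient replicate 2 and -0.13 within either slide. Hspa1b, an inducible heat shock protein, was at 1.47, 0.33, 1.21 and 1.51 in double-deficient kidneys and 2.05, 2.02, 2.16 and 3.17 in Sting-ko kidneys, with a difference of -1.22 (SE 0.43). Trib3 and Chac1, targets of the amino acid stress response, differed by -1.03 (SE 0.35) and -1.38 (SE 0.57), and Jun, an immediate early transcription factor, by -0.77 (SE 0.39).

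**Figure D5:**
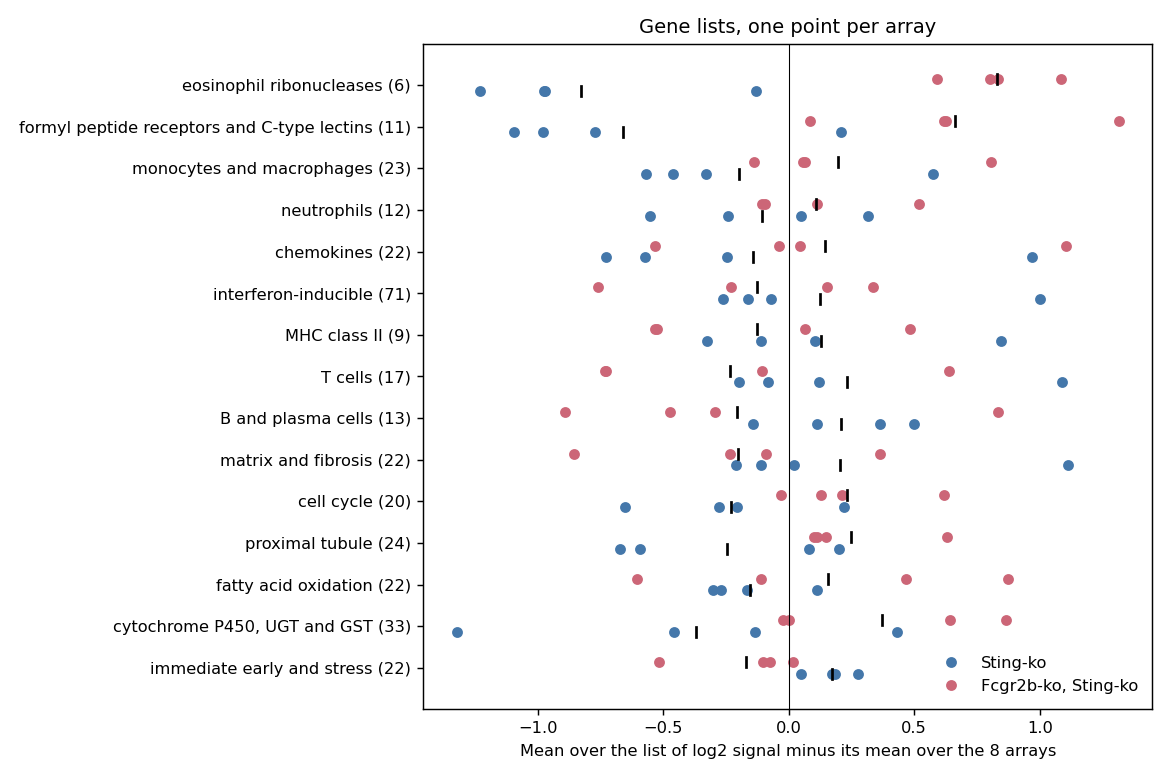
Mean level of 15 gene lists per array (x axis, log2 relative to the mean of the 8 arrays; number of measured genes in brackets), 1 point per array with a bar at each group mean. The eosinophil ribonucleases (0.59 to 1.09 against -1.23 to -0.13) and the stress genes do not overlap between the groups. The ribonuclease list includes genes chosen for no overlap. Interferon-inducible and T cell genes overlap, with Sting-ko replicate 1 the highest array of both.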

How the data were processed

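Kidney RNA of 16 mice, 4 per genotype, was amplified from 100 ng and hybridized to one-color Agilent arrays, 1 mouse per array. The authors deposited scanner files of Agilent Feature Extraction 11.0, per the labels, whose processed signal is an intensity: spot brightness after background subtraction and spatial detrending, not scaled between arrays. They also deposited a table of log2 values of the same arrays, scaled in a way not given in the sources used here, which served as an alternative.

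Spots of one probe were averaged after control and outlier spots were left out, and log2 intensity minus the 75th percentile of each array was used (Python 3.11.15, pandas 2.3.3). Of 56605 probes, 35629 that at least 4 of 16 arrays measured well above background were tested by lmFit and eBayes of limma 3.58.1 (R 4.3.3), with a mean per genotype over 16 arrays, and 9 of them lacked a value on 1 or more of the 8 arrays. A call needed a Benjamini-Hochberg adjusted p under 0.05 and 2-fold. The fit was checked on simulated data. Names came from a RefSeq table (58.3% of probes), whose start positions also gave the order of genes around Fcgr2b. A gene was read at its brightest probe unless stated. The genes named are the 12 largest separated differences in each direction, at the probe of the largest separated difference, and up to 4 per list, or 10 near Fcgr2b, with the smallest p. Pou2f2 and the unnamed probe were named after their values were seen. The 42 lists, the genes and the tests were chosen with earlier results of these data known. The normexp alternative used each spot's median signal, since the design's mean signal is not a column of these files. Alternatives were 3 scalings, normexp with an offset of 50, 2 filters, the 8 arrays alone, trend and robust eBayes, the slide or replicate number as a block, Y-linked signal as a covariate, the Mann-Whitney test and each array left out. Fits within a slide were added after seeing the data. Arrays give no counts, so their number limits the precision.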

Additional observations from a re-analysis of the deposited data

Results flagged for a closer look

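Among 208 groups of 4 arrays examined, for 62 genes and 42 list scores in both genotypes, 16 had 1 array far from the other 3, and chance alone flags about 1 group in 20. In double-deficient kidneys, replicate 4 was low for Ear10 (-2.53) and Map2 (-3.90), replicate 3 was high for Oas2 (-0.93) and Aurkb (-2.93), and replicate 2 was low for Jun (1.44). The proximal tubule score of double-deficient replicate 4 was high (0.63). In Sting-ko kidneys, replicate 1 was high for Lck (0.73) and for the scores of interferon-inducible genes (1.001) and MHC class I (0.62). Sting-ko replicate 4 was high for Hspa1b (3.17) and low for Aurkb (-6.39). Sting-ko replicate 3 was high for the scores of Y-linked (3.81) and male-high kidney genes (2.95) and low for X-inactivation (-3.27), female-high kidney genes (-3.29) and adrenal genes (-0.41).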

How the results depend on the processing

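The count of 0 called probes in double-deficient against Sting-ko kidneys held under every alternative except the fit of only these 8 arrays (2 probes), and the unadjusted Mann-Whitney test with 2-fold gave 171. With 1 array left out the count was 0 to 0. The count at an unadjusted limma p under 0.05, 1085, went to 334 without Sting-ko replicate 4 and to 2764 without Sting-ko replicate 2. The 172 probes without overlap at 2-fold became 40 with normexp, 290 with no filter and 59 with probes well above background on all 16 arrays, and ranged from 126 to 1171 without 1 array, where fewer arrays overlap less by construction. The interaction called 0 probes throughout. The 18 probes called in Fcgr2b-ko against wild-type kidneys became 7 with the authors' table, 5 with normexp, 0 with probes well above background on all 16 arrays and 8 with Y-linked signal as a covariate. For Sting1 the difference ranged from -0.46 to 0.042 without 1 array, turning without double-deficient replicate 4 (0.024), without Sting-ko replicate 1 (0.042) and within slide 2 (0.075), and the other 61 genes kept their sign under all these alternatives, fits within a slide aside. For genes whose groups do not overlap, the signs without 1 array were fixed in advance. Scaling by the median moved the median of all tested probes from 0.01 to 0.14. The median of the eosinophil ribonucleases was 0.95 with normexp and 0.34 with probes well above background on all 16 arrays.

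Deviations from the group mean correlated at 0.12, -0.44, -0.55 and -0.19 between same-numbered arrays of the 2 groups. Differently numbered arrays ranged from -0.49 to 0.62, so this cannot show whether equal numbers pair mice, and the labels do not say. With the replicate block, 0 probes were called in double-deficient against Sting-ko kidneys, 0 in the interaction and 16 in Fcgr2b-ko against wild-type kidneys.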
